A study of Mus musculus with 4 samples.

Results

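The mouse Cyp3a genes encode cytochrome P450 enzymes of the 3A subfamily. They were read here on 4 Affymetrix gene arrays of whole liver RNA. The listed genes were Cyp3a11, Cyp3a13, Cyp3a16, Cyp3a25, Cyp3a41a, Cyp3a44 and Cyp3a59, and the members were the probe sets whose platform annotation gave 1 of these symbols. Of the 7 listed genes, 6 had a probe set of their own, out of 22180 genes with such a probe set, and each of the 6 had 1 probe set. Cyp3a41a was found only in 2 probe sets, 17455127 and 17455143, that were annotated together to Cyp3a41a, Cyp3a41b, Cyp3a11 and Cyp3a44. These 2 are called mixed probe sets below and are given by number, since signal from near-identical copies cannot be told apart in them. Probes of the other members may share sequence as well, and probe sequences were not used here.

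The groups were Myd88 knockout livers on high-fat diet, knockout livers on control diet, wild-type livers on high-fat diet and wild-type livers on control diet. Every mouse was of the C57Bl6 strain, 16 weeks old and homozygous for a floxed Myd88 gene, which encodes the adaptor of Toll-like and interleukin-1 receptors. Knockout mice also carried an albumin-promoter Cre, a promoter active mainly in hepatocytes, so other liver cells would keep the gene. The high-fat diet held 60% fat and the control diet 9.4%. Each array held RNA pooled from 4 to 5 mice chosen for RNA quality, so each group was 1 array without a replicate, and neither the spread between mice nor the mice's sex is given.

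Enzymes of the 3A subfamily sit in the endoplasmic reticulum of hepatocytes and enterocytes, where they oxidise drugs, steroids and bile acids with electrons passed on by P450 reductase and cytochrome b5. Their transcription is known to be induced through the pregnane X receptor PXR (Nr1i2) and the constitutive androstane receptor CAR (Nr1i3), which pair with retinoid X receptors on DNA. Cyp3a11 is the most studied enzyme of adult mouse liver and the usual readout of PXR activation. Cyp3a41a and Cyp3a44 are known as female-predominant liver genes, and Cyp3a16 is expressed mainly in liver before puberty.

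In the RefSeq annotation of mouse chromosome 5 (GRCm38.p6), 8 Cyp3a protein-coding genes and 2 Cyp3a pseudogenes lie in 1 cluster, in the order Cyp3a57, Cyp3a16, Cyp3a41b, Cyp3a41a, Cyp3a44, Cyp3a11, Cyp3a25 and Cyp3a59. Cyp3a13 lies apart, with 121 protein-coding genes between it and Cyp3a57. To show how alike the members are upstream, the 250 bases before the annotated start are given for 6 genes, 5′ to 3′ on the strand of the gene, from RefSeq on GRCm38.p6. Capitals mark matches, on either strand, to AGGTCA (the hexamer bound by many nuclear receptors), to its variant AGTTCA, and to CAAAGTCCA (a sequence bound by the hepatocyte factor HNF4).
Cyp3a11 (chr5:145879855-145880104, minus strand): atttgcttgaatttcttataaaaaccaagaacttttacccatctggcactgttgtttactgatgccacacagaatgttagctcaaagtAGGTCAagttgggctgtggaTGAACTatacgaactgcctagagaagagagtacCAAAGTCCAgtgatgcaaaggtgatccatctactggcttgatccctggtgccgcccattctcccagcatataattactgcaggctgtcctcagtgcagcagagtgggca
Cyp3a44 (chr5:145805875-145806124, minus strand): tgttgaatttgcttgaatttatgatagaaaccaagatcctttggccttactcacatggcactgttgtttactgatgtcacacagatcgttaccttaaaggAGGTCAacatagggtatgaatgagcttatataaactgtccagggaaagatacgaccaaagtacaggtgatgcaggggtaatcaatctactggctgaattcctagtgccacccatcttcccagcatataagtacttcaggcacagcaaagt
Cyp3a41a (chr5:145720137-145720386, minus strand): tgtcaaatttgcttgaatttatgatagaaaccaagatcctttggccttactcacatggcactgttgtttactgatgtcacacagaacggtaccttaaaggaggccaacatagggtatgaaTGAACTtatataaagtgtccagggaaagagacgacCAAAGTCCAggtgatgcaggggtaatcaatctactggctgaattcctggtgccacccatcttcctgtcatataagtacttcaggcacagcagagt
Cyp3a25 (chr5:146009619-146009868, minus strand): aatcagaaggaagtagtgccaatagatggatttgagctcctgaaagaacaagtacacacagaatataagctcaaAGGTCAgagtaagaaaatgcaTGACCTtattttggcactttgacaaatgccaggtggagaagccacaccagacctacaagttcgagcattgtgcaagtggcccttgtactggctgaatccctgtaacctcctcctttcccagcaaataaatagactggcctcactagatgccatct
Cyp3a59 (chr5:146079008-146079257, plus strand): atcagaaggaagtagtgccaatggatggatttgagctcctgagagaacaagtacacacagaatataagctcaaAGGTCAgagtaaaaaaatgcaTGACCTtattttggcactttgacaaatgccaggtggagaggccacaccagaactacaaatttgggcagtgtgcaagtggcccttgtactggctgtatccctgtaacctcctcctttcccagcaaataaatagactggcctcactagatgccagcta
Cyp3a13 (chr5:137921620-137921869, minus strand): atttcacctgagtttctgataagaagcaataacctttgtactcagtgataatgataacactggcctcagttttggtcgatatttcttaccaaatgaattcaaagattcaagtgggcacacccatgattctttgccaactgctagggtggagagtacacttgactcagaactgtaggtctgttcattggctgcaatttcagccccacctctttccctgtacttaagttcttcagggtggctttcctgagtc

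All 9 annotated Cyp3a genes were matched in the promoter table, and for Cyp3a25, which has 2 windows there, the first was used. In global alignments of these 250 bases, Cyp3a41a and Cyp3a41b were 99.6% identical, and Cyp3a44 was 94.4% identical to Cyp3a41a. Cyp3a16 was 90.9% identical to Cyp3a41a, and Cyp3a11 was 71.7% identical to both Cyp3a41a and Cyp3a44. Cyp3a25 and Cyp3a59 formed another set with Cyp3a57, at 94.8% identity to each other and at 88.9% and 90.1% to Cyp3a57. Cyp3a25 was 52.7% identical to Cyp3a11, and Cyp3a13 was 53.5% identical to Cyp3a11 and 47.5% to Cyp3a25. The motifs were chosen with these sequences in view.

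AGGTCA occurred upstream of 5 of the 9 genes (Cyp3a57, Cyp3a44, Cyp3a11, Cyp3a25 and Cyp3a59), against 14.0% of 32817 upstream windows of the same length. The Cyp3a25 and Cyp3a59 windows each hold it at 2 places. AGTTCA occurred in 3 of the 9 (Cyp3a11, Cyp3a41a and Cyp3a41b), against 11.9% of all windows. CAAAGTCCA was found in 4 of the 9 (Cyp3a16, Cyp3a41b, Cyp3a41a and Cyp3a11), against 0.384% of all windows. The motif TTCNNNGAA, bound by STAT proteins, was found in 0 of the 9 and in 7.01% of all windows. The capitals do not overlap one another, the genes share ancestry and so are not separate counts, and a match is a description of letters and not of binding. The map of matches shows them side by side.

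**Figure D1:**
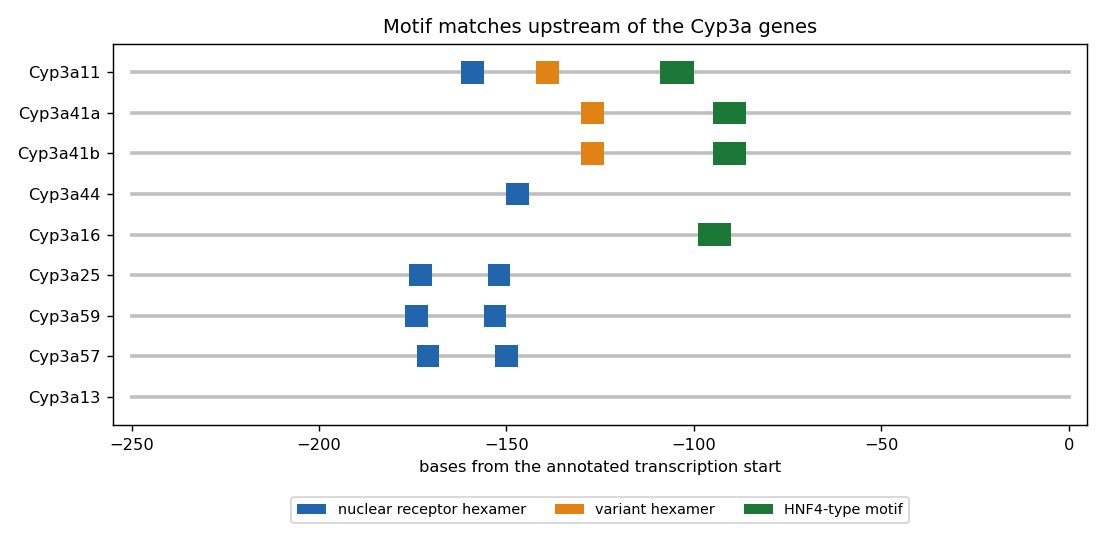
Matches to the nuclear receptor hexamer, its variant and the HNF4-type motif in the 250 bases upstream of the 9 Cyp3a genes, on either strand; the horizontal axis gives bases from the annotated transcription start and each row is a gene. Cyp3a25, Cyp3a59 and Cyp3a57 hold 2 hexamers each, Cyp3a11 holds 1 of each motif, and Cyp3a13 holds none.

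The 4 arrays had a median log2 value between 3.53 and 3.56 and correlated with a Pearson r between 0.985 and 0.990 over all probe sets. Genes with a mean log2 value below 3.47, the 40th percentile, were treated as dim, and 13308 genes were kept. Of the 6 members with their own probe set, 5 were kept. Cyp3a16 was below the filter, and Cyp3a44 passed it only through its value on the wild-type control array, so its passing is tied to its difference. Myd88 (probe set 17532137) had log2 values of 6.23 in knockout and 6.44 in wild type on high-fat diet, and of 5.91 in knockout and 6.10 in wild type on control diet. Knockout was lower on both diets, by less than the central 95% of genes spans, and whether the probe set lies in the deleted part is not given in the labels. The differences of the 6 hepatocyte markers lay between -0.11 and 0.23. All values are log2 expression values, a difference of 1 is 2-fold, and levels are compared between arrays and never between probe sets.

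Most Cyp3a transcripts were highest in wild-type livers on control diet and lower on each of the other 3 arrays. This held for Cyp3a11, Cyp3a25, Cyp3a44 and Cyp3a59, 4 of the 6 members, and for both mixed probe sets; of all genes kept, 28.0% were lower than wild-type control on each of the other 3 arrays. Cyp3a13 went the other way and was lowest on the wild-type control array, as were 22.9% of all genes kept. Cyp3a16 was dim on every array. In whole liver RNA, fewer cells of a type and less RNA per cell cannot be told apart.

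**Figure D2:**
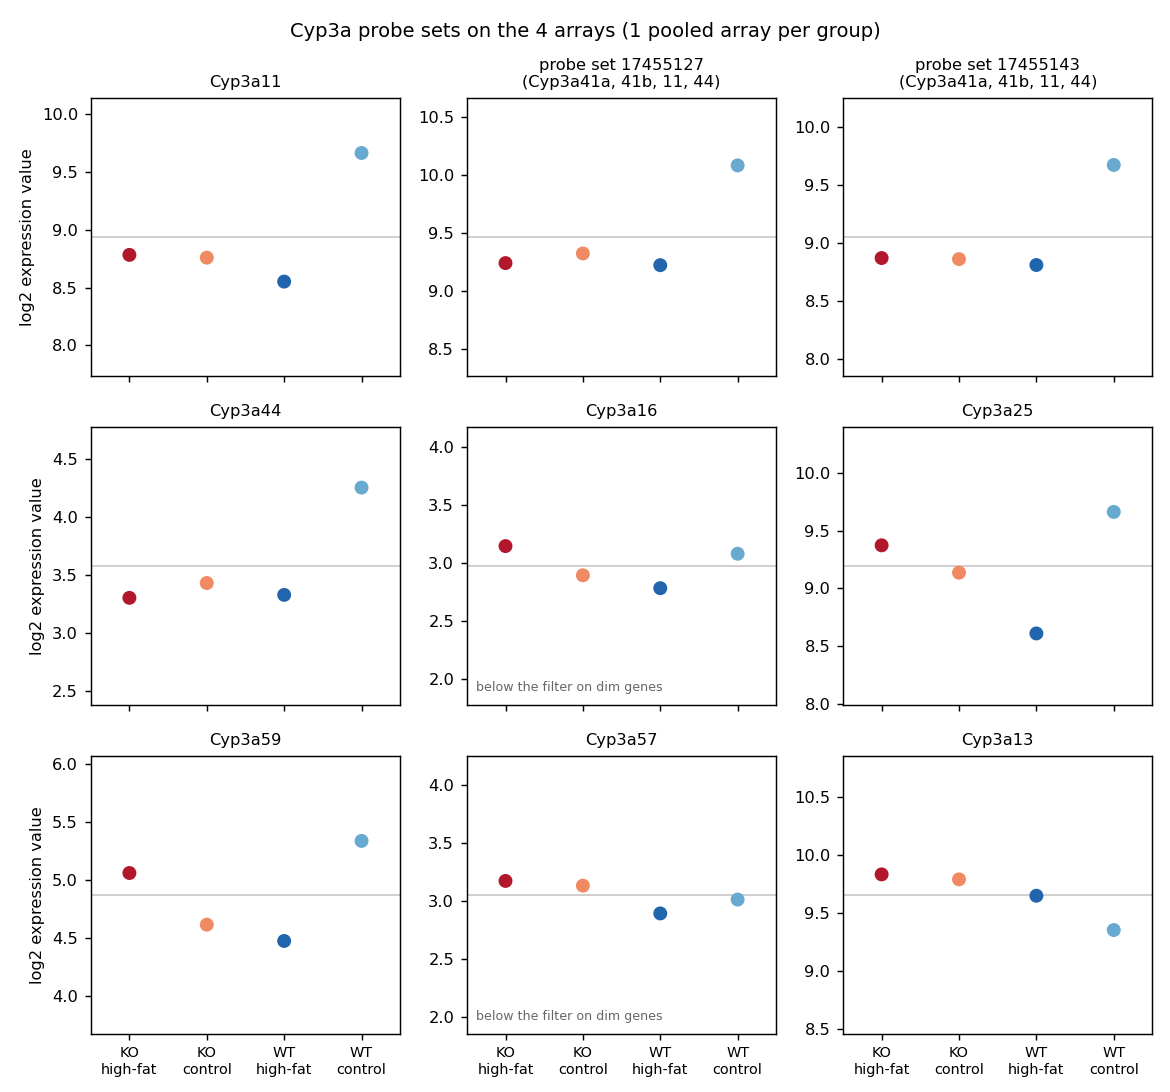
Log2 expression value of each Cyp3a probe set (vertical axis, the same span of 2.4 in every panel) on the 4 arrays, with 1 point per pooled array and a grey line at the mean of the 4. The wild-type control point stands above the other 3 for Cyp3a11, Cyp3a44, both mixed probe sets, Cyp3a25 and Cyp3a59, and below them for Cyp3a13.

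Cyp3a11 (probe set 17455175) stood at 8.78 in knockout livers on high-fat diet, 8.76 in knockout livers on control diet, 8.55 in wild-type livers on high-fat diet and 9.66 in wild-type livers on control diet. The first 3 lay within a narrow band, and the wild-type control array stood apart from all of them. High-fat diet in wild type went with a difference of -1.11, or 0.463 times the control level, and loss of Myd88 on control diet with -0.90, or 0.534 times. Of 13308 genes, these were number 57 and number 27 from the lowest. In knockout the diet difference was 0.02, and on high-fat diet the genotype difference was 0.23.

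Cyp3a44 (probe set 17455159) was dim, with 3.30 in knockout and 3.33 in wild type on high-fat diet, and 3.43 in knockout and 4.25 in wild type on control diet. Only the wild-type control value was above the filter. The differences were -0.93 with high-fat diet in wild type, -0.82 with loss of Myd88 on control diet, -0.13 with high-fat diet in knockout and -0.03 with loss of Myd88 on high-fat diet.

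The mixed probe sets, the only ones that hold Cyp3a41a, followed the same course at bright levels. Probe set 17455127 had 9.24 in knockout and 9.22 in wild type on high-fat diet, and 9.32 in knockout and 10.09 in wild type on control diet. Probe set 17455143 had 8.87 and 8.81 in knockout and wild type on high-fat diet, and 8.86 and 9.68 in knockout and wild type on control diet. The diet difference in wild type was -0.86 in both, and the genotype difference on control diet was -0.76 and -0.81. After each was centred on its own mean over the 4 arrays, the mixed sets differed from each other by a root mean square of 0.03, from Cyp3a44 by 0.04 and 0.06, and from Cyp3a11 by 0.10 and 0.09. Cyp3a44 was above the filter value only on the wild-type control array, and RMA compresses differences of dim probe sets. Its smaller distances therefore do not single it out. Which of their 4 annotated genes gave the signal of the mixed probe sets cannot be told from them.

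Cyp3a16 (probe set 17455111) had 3.15 in knockout and 2.78 in wild type on high-fat diet, and 2.89 in knockout and 3.08 in wild type on control diet. All 4 values lay below the filter, and its range of 0.36 was the narrowest of the 6 members.

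Cyp3a25, the neighbour of Cyp3a11 in the cluster, and Cyp3a59 had the same signs as Cyp3a11 in all 4 comparisons. Mixed probe set 17455143 and the dim Cyp3a16 shared these signs as well. Cyp3a25 (probe set 17455193) had 9.37 in knockout livers on high-fat diet, 9.14 in knockout livers on control diet, 8.61 in wild-type livers on high-fat diet and 9.66 in wild-type livers on control diet. Its lowest value was that of wild type on high-fat diet, and both knockout values lay between the wild-type ones, as for Cyp3a11. High-fat diet in wild type went with -1.05, or 0.483 times the control level, and loss of Myd88 on high-fat diet with 0.76, or 1.70 times the wild-type level. The genotype difference on high-fat diet was number 88 from the highest of 13308 genes, and on control diet the difference had the other sign, at -0.53.

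Cyp3a59 (probe set 17444697) had 5.06 in knockout and 4.47 in wild type on high-fat diet, and 4.62 in knockout and 5.34 in wild type on control diet. High-fat diet went with 0.45 in knockout and with -0.86 in wild type. Loss of Myd88 went with 0.59 on high-fat diet and with -0.72 on control diet. The order of its 4 arrays was that of Cyp3a11 and Cyp3a25. Against a root mean square of 0.24 between the centred values of Cyp3a25 and Cyp3a11, those of Cyp3a25 and Cyp3a59 differed by 0.14. Cyp3a57, which is no listed member but shares their upstream sequence, was dim at 3.17 in knockout and 2.89 in wild type on high-fat diet and 3.13 in knockout and 3.01 in wild type on control diet.

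Cyp3a13, an enzyme of liver and small intestine, was bright and varied least among the members kept. Probe set 17454193 had 9.83 in knockout livers on high-fat diet, 9.79 in knockout livers on control diet, 9.65 in wild-type livers on high-fat diet and 9.35 in wild-type livers on control diet. It was higher with high-fat diet in wild type by 0.30, or 1.23 times, and higher with loss of Myd88 on control diet by 0.44, or 1.35 times. The genotype difference was number 290 from the highest of 13308 genes. In the list of 8 intestinal epithelium markers, Vil1, Cdx1, Alpi and Sis were below the filter, Cdx2 and Muc2 lay between 3.59 and 3.93 on every array, and Lgals4 had 5.42 in knockout and 5.73 in wild type on high-fat diet and 5.73 in knockout and 6.07 in wild type on control diet. Fabp2 was bright, at 10.43 in knockout and 9.98 in wild type on high-fat diet and 9.75 in knockout and 9.88 in wild type on control diet. The part of intestinal RNA in the Cyp3a13 values was not tested.

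The 4 comparisons of the design are each a subtraction of 2 arrays, without a replicate and without a p-value. The effect of diet in wild type and that of genotype on control diet share the wild-type control array and therefore are not separate evidence of 1 pattern, and the comparisons within knockout and within high-fat diet do not use it. With high-fat diet in wild type, 5 of the 6 members were lower and 2 of them, Cyp3a11 and Cyp3a25, at least 2-fold, against 0.564% of all genes kept; at least 1.5-fold lower were 4, against 2.52%. None was at least 2-fold higher there, against 0.488% of all genes. The median of the 6 was -0.90 and that of all genes kept -0.03. Since the 6 include the dim Cyp3a16, the median of all 22180 genes with no filter is the closer match, at 0.0002. With loss of Myd88 on control diet, 5 of 6 were lower, 0 of them at least 2-fold (0.158% of all genes) and 3 at least 1.5-fold (0.864%). The median of the 6 was -0.62, against -0.02 for all genes kept and -0.004 with no filter. None was 2-fold higher (0.346%). The 6 members were taken with no filter, but the shares past a threshold are of genes kept. Cyp3a44, above the filter value only on the wild-type control array, is among the 4 and the 3 past 1.5-fold.

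With high-fat diet in knockout, 5 of 6 were higher and 1 lower, none by 2-fold, against 0.323% of all genes past 2-fold upwards and 0.286% downwards. The median of the 6 was 0.14, against 0.01 for all genes with or without the filter, and without the dim Cyp3a16 it was 0.04. With loss of Myd88 on high-fat diet, 5 of 6 were higher, 0 of them at least 2-fold (0.225% of all genes; 0.165% were 2-fold lower). Of these, Cyp3a25 and Cyp3a59 were at least 1.5-fold higher, against 2.1% of all genes, and the median of the 6 was 0.30 against 0.02 for all genes kept and 0.001 with no filter.

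**Figure D3:**
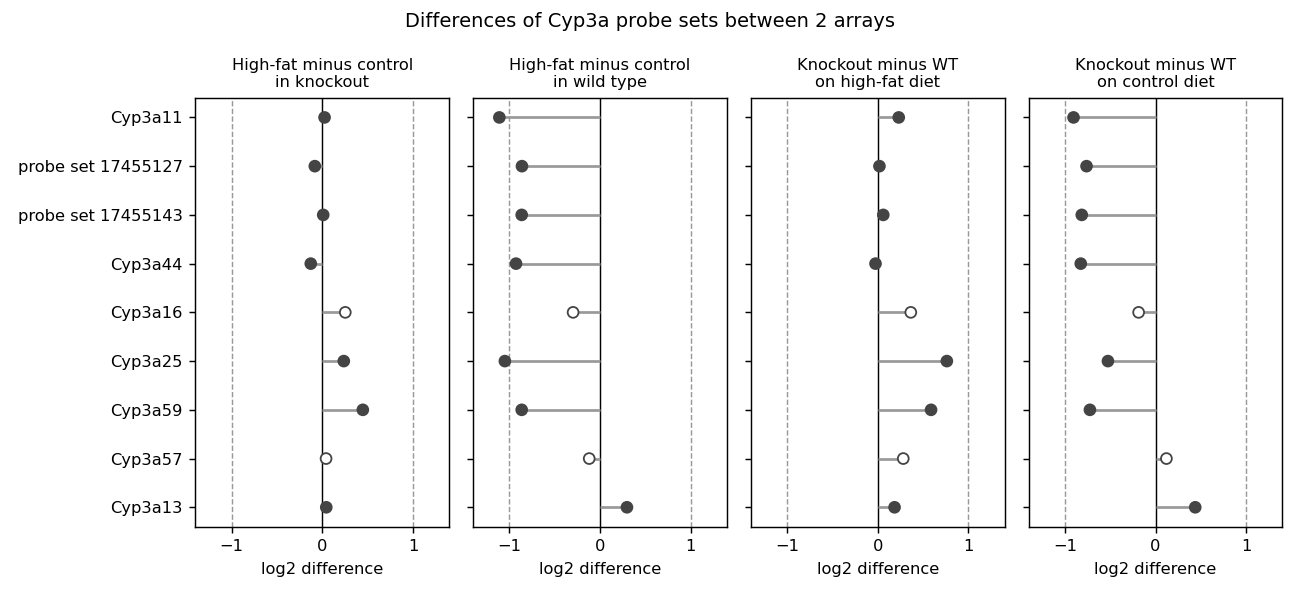
Log2 difference of each Cyp3a probe set (rows) in the 4 comparisons between 2 arrays, with dashed lines at 2-fold; open points are below the filter on dim genes. Bars point left for all but Cyp3a13 under diet in wild type, and are short for diet in knockout, where no value passed 0.45 in size.

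The diet difference in knockout minus that in wild type was 1.31 for Cyp3a59, 1.29 for Cyp3a25, 1.14 for Cyp3a11, 0.80 for Cyp3a44, 0.55 for Cyp3a16 and -0.25 for Cyp3a13. It was 0.78 and 0.87 in the mixed probe sets. At least 2-fold on the positive side were 3 of the 6 members, against 0.661% of all genes, and 0 on the negative side, against 0.556%. Opposite signs of the diet difference in knockout and wild type were found for 44.7% of all genes kept, and 26.0% were higher in knockout and lower in wild type, as were Cyp3a11, Cyp3a25, Cyp3a59 and the dim Cyp3a16. For Cyp3a11 the value in knockout was 0.02, so its sign there carries little. With 1 array per group this difference has no test.

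**Figure D4:**
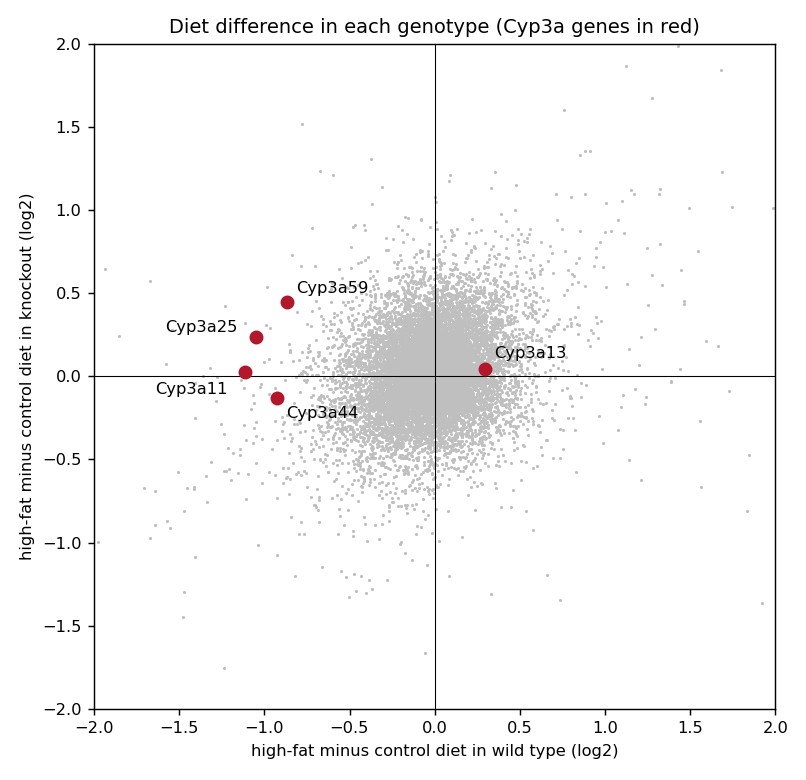
Log2 diet difference in wild type (horizontal axis) against that in knockout (vertical axis) for each gene kept (grey) and for the 5 Cyp3a genes kept (red); the axes share no array, and 27 genes lie outside the limits of 2. Cyp3a11, Cyp3a25, Cyp3a44 and Cyp3a59 lie to the left of -0.8 with knockout values between -0.13 and 0.45, and Cyp3a13 lies to the right.

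An additive limma fit of genotype and diet over all 13308 genes leaves 1 residual degree of freedom. It takes the interaction of both factors as error, and its p-values measure spread between pooled arrays and not between mice. After Benjamini-Hochberg adjustment in limma, at 0.05, diet called 0 of 5 members and genotype 0, and each called 0.0% of all genes. At an unadjusted p of 0.05, 1 member passed for diet (9.3% of all genes did) and 0 for genotype (4.26%). That member was Cyp3a44, with a mean diet effect of -0.53 (SE 0.21, limma adjusted p 0.528). Cyp3a44 entered the fit only through its wild-type control value, so its place there is tied to this effect. Cyp3a11 had a mean diet effect of -0.54 (SE 0.27, limma adjusted p 0.602). Cyp3a13 had a mean genotype effect of 0.31 (SE 0.13, limma adjusted p 0.9755), higher in knockout on both diets. For Cyp3a25 and Cyp3a59 the mean genotype effects were 0.12 (SE 0.30) and -0.07 (SE 0.30), means of differences of opposite sign.

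The 5 nearest measured genes on each side of the cluster served as a check of position. None of these 10 genes was at least 2-fold different in any comparison. Of all genes kept, 0.158% to 0.564% passed 2-fold in 1 direction of a comparison, so this count says little for 10 genes. With high-fat diet in wild type the 10 lay between -0.48 (Atp5j2) and 0.27 (Zkscan14), all above the values of Cyp3a11, Cyp3a25, Cyp3a44 and Cyp3a59. With loss of Myd88 on control diet they lay between -0.35 and 0.24. These genes were chosen by their place among the genes kept by the filter. Atp5j2, which held both lowest values, was dim and close to the filter value. It had 3.56 in knockout and 3.24 in wild type on high-fat diet, and 3.37 in knockout and 3.72 in wild type on control diet.

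Genes whose course over the 4 arrays was most like that of Cyp3a11 were sought among 563 genes outside the Cyp3a family with at least 0.7 of its range. Nearest was Ehhadh, the bifunctional enzyme of peroxisomal fatty acid oxidation, with a root mean square difference of 0.03 between centred values. It had 9.39 in knockout and 9.12 in wild type on high-fat diet, and 9.41 in knockout and 10.26 in wild type on control diet. Next came the kinase gene Sgk2 (0.07), the aldehyde oxidase gene Aox1 (0.11), the retinol dehydrogenase gene Rdh16 (0.11) and the class I histocompatibility gene H2-Q1 (0.11). For comparison, Cyp3a44 stood at 0.10 from Cyp3a11, Cyp3a59 at 0.22 and Cyp3a13 at 0.59. The same search for Cyp3a25, added after the values were seen, gave Gtf2ird1 (0.09), Lsm10 (0.09), Nmt2 (0.11), Ago4 (0.11) and Med10 (0.12) of 678 genes. With 4 points per gene, this measure ranks likeness and says nothing of shared control.

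None of 9 measured receptors and partners of Cyp3a transcription was 2-fold different in any comparison. At most 0.564% of all genes kept passed 2-fold in 1 direction of a comparison, so a count of 0 says little for so short a list. Nr1i2, which encodes PXR and is named here after its values were seen, had 7.95 in knockout and 7.92 in wild type on high-fat diet, and 7.96 in knockout and 8.33 in wild type on control diet. Its highest array was also wild-type control, with differences of -0.40 for diet in wild type and -0.37 for genotype on control diet. Nr1i3, which encodes CAR, had 9.72 in knockout and 9.97 in wild type on high-fat diet and 9.10 in knockout and 9.40 in wild type on control diet, a diet difference of 0.62 in knockout and 0.57 in wild type. Nr0b2, the repressor SHP, was lower on high-fat diet by -0.40 in knockout and -0.54 in wild type. The coactivator gene Ncoa1 was higher in knockout on high-fat diet by 0.64, and Rxrb, a retinoid X receptor gene, was lower on high-fat diet by -0.37 in knockout and -0.41 in wild type. Of 9 measured receptors and partners, 0 passed limma after adjustment over all genes for diet or genotype.

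Of 10 measured genes of electron and haem supply to P450 enzymes, haem breakdown included, none was 2-fold different in any comparison. Such a count says little for so short a list. In limma 0 of them passed after adjustment over all genes. The gene of P450 reductase was not among the 10, so the values do not cover it. The widest ranges were those of Hmox1, the haem oxygenase that breaks haem down, which was lower by -0.80 with high-fat diet in wild type and by -0.87 with loss of Myd88 on control diet, and of the haem-binding protein gene Pgrmc2, lower by -0.55 and -0.29. The cytochrome b5 gene Cyb5b was lower by -0.52 and -0.43. Alas1, the first enzyme of haem synthesis, was higher by 0.43 with high-fat diet in knockout and differed by -0.08 in wild type.

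Of 26 other targets of CAR and PXR that were kept, 18 were lower and 8 higher with high-fat diet in wild type, with a median of -0.38. At least 2-fold lower there were 5, against 0.564% of all genes kept, and 0 were 2-fold higher (0.488%). With loss of Myd88 on control diet 23 were lower and 3 higher, with a median of -0.37, and 6 were at least 2-fold lower (0.158% of all genes kept). With high-fat diet in knockout 18 were higher and the median was 0.38, and with loss of Myd88 on high-fat diet 20 were higher and the median was 0.15. Cyp2b9 had 8.60 in knockout and 7.61 in wild type on high-fat diet, and 5.28 in knockout and 9.05 in wild type on control diet. Cyp2c38 had 9.24 in knockout and 7.59 in wild type on high-fat diet, and 8.43 in knockout and 10.53 in wild type on control diet. This was the same order of arrays as for Cyp3a11 and Cyp3a25. Gstm3, a glutathione transferase gene, had 5.86 in knockout and 5.52 in wild type on high-fat diet and 6.47 in knockout and 8.03 in wild type on control diet. Cyp2b13 had 3.52 and 3.30 in knockout and wild type on high-fat diet and 2.95 and 4.97 on control diet. These 4 genes had the widest ranges of the list, and wild-type control was the highest array for all of them. For Cyp2b13 this was tied to the filter, since its other 3 arrays averaged 3.26 and it was kept only through wild-type control. Without Cyp2b13, 4 of 25 were at least 2-fold lower with high-fat diet in wild type and 5 with loss of Myd88 on control diet. In limma 0 of the 26 passed limma after adjustment over all genes.

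Outside Cyp3a, 49 genes of P450 families 1 to 4 were kept, some of them also among the CAR and PXR targets. At least 2-fold lower with high-fat diet in wild type were 8 of them and 1 was higher, against 0.564% and 0.488% of all genes kept. With loss of Myd88 on control diet 6 were at least 2-fold lower and 0 higher, against 0.158% and 0.346%. Cyp2b13 was among the lower ones in both. In knockout 1 was at least 2-fold higher with high-fat diet (0.323% of all genes kept), and with loss of Myd88 on high-fat diet 1 was higher (0.225%). Their median was 0.04 for diet in wild type and -0.15 for genotype on control diet. Cyp4a14, a fatty acid omega-hydroxylase, was lower with high-fat diet in both genotypes, by -0.91 in knockout and -2.80 in wild type. The 6 Cyp4f genes were all higher with high-fat diet in wild type, with a median of 0.18, and Cyp2e1 differed by 0.24. Lower medians with high-fat diet in wild type were not particular to Cyp3a. That of Cyp2a was -0.62 with 3 of 4 genes lower, that of Cyp2c -0.10 with 7 of 12 lower and that of Cyp4a -0.99 with 4 of 4 lower. The Cyp2b median was -1.44 with 2 of 3 lower, and Cyp2b13, kept only through wild-type control, was among the lower ones. The other Cyp2b genes were Cyp2b9 at -1.44 and Cyp2b10 at 0.15.

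**Figure D5:**
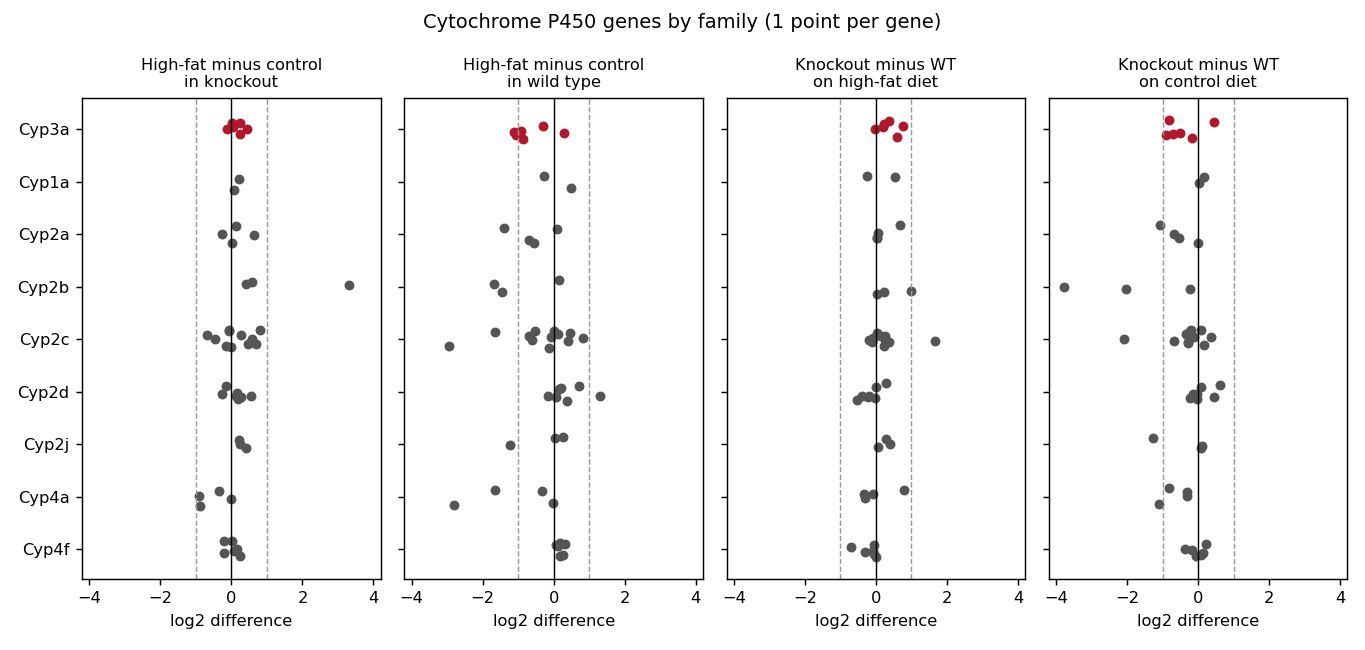
Log2 differences of P450 genes by family (rows; Cyp3a in red with its 6 members, other families in grey with the genes kept) in the 4 comparisons, with dashed lines at 2-fold. For diet in wild type the family median is below 0 in Cyp3a, Cyp2a, Cyp2b, Cyp2c and Cyp4a, while Cyp2d and Cyp4f lie mostly to the right of 0. The Cyp2b points include Cyp2b13, kept only through wild-type control.

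Since Cyp3a41a and Cyp3a44 are female-predominant, genes with a known sex bias in mouse liver were read beside them. Of 14 female-predominant genes with a probe set, dim ones included, 9 were lower with high-fat diet in wild type and 9 with loss of Myd88 on control diet. The medians were -0.39 and -0.28, and 6 were at least 2-fold lower in each, against 0.564% and 0.158% of all genes kept. Cyp2b9, Cyp2b13 and Cyp2a4, at least 2-fold lower in both, were also counted among the CAR and PXR targets and the P450 genes. The lists are therefore not separate evidence. The filter kept 9 of the 14, of which Slc22a26 and Cyp2b13 passed only through the wild-type control array where they were high. Over the other 7, 6 were lower in each of these comparisons, 4 at least 2-fold, and the medians were -1.14 and -1.09. Besides Cyp2b9 and Cyp2b13, the widest ranges were those of the transporter genes Slc22a26, with 3.42 in knockout and 3.24 in wild type on high-fat diet and 3.39 in knockout and 5.47 in wild type on control diet, and Abcd2, with 7.11 and 5.90 on high-fat diet and 6.46 and 7.83 on control diet. Of 13 male-predominant genes, the medians were 0.08 in both of those comparisons. Susd4 was higher by 1.25 with high-fat diet in wild type, the steroid hydroxylase gene Cyp7b1 by 0.86 both there and with loss of Myd88 on control diet, and Elovl3 differed by -0.81 with high-fat diet in knockout and -1.47 in wild type. The Y-linked genes did not share 1 order of arrays. Uty had 7.30 in knockout and 6.63 in wild type on high-fat diet, and 6.70 in knockout and 6.38 in wild type on control diet. Kdm5d had 5.67 and 5.25 in knockout and wild type on high-fat diet and 5.36 and 4.82 on control diet. These 2 genes were lowest on the wild-type control array, where most Cyp3a genes were highest. Eif2s3y had 8.23 in knockout and 7.71 in wild type on high-fat diet, and 7.67 in knockout and 7.84 in wild type on control diet. All of these Y-linked genes lay above the filter value on all 4 arrays, so every pool held RNA of male mice. Xist lay below the filter on all 4 arrays, between 3.07 and 3.23. The part of these sex-biased programmes in the Cyp3a values was not tested.

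In the growth hormone axis, which sets that sex bias, 0 of 11 measured genes passed limma after adjustment over all genes. With high-fat diet in wild type 1 was at least 2-fold higher and 1 lower, against 0.488% and 0.564% of all genes kept. Socs2, an inhibitor induced by growth hormone, had 5.93 in knockout and 5.44 in wild type on high-fat diet and 5.68 in knockout and 7.30 in wild type on control diet. Bcl6, a repressor of female-predominant genes, had 7.38 in knockout and 7.70 in wild type on high-fat diet and 7.46 in knockout and 6.53 in wild type on control diet. Both set the wild-type control array apart from the other 3, in opposite directions. Among 15 hepatocyte transcription factors none was 2-fold different, a count that says little for so short a list. Dbp was the widest, higher with high-fat diet by 0.55 in knockout and 0.88 in wild type, and the coactivator gene Ppargc1a was lower with high-fat diet in wild type by -0.77.

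Acute phase genes, most of whose products are secreted by hepatocytes under inflammatory cytokines, had their lowest summed level on the wild-type control array, where most Cyp3a genes were highest. Of 22 measured, 18 were higher with high-fat diet in wild type and 22 with loss of Myd88 on control diet, with medians of 0.33 and 0.49. At least 2-fold higher were 9 in each, against 0.488% and 0.346% of all genes kept. Saa2 had 10.83 in knockout and 10.73 in wild type on high-fat diet and 12.34 in knockout and 4.97 in wild type on control diet, and Lcn2 had 8.37 and 7.56 on high-fat diet and 9.27 and 4.97 on control diet. Both Saa2 and Lcn2 were highest in knockout on control diet. With high-fat diet in knockout, 17 of the 22 were lower and 5 higher, with a median of -0.26. The part of the acute phase response in the Cyp3a values was not tested.

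Zonation and bile acid genes moved less. Of 12 pericentral genes, with which Cyp3a11 shares its place in the lobule, none was 2-fold different, which says little for so short a list. Their medians were 0.09 with high-fat diet in knockout and 0.14 in wild type. Oat was higher with high-fat diet by 0.44 in knockout and 0.53 in wild type, and Cyp1a2 by 0.23 and 0.50. Of 9 periportal genes the medians were -0.03 and -0.16. In bile acid synthesis and transport, Cyp7a1, the rate-limiting enzyme, was higher with high-fat diet by 0.75 in knockout and 0.49 in wild type, and the bile salt pump gene Abcb11 was lower by -0.21 and -0.53.

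RNA of other tissues also differed between the pools. The 9 exocrine pancreas markers were all higher with high-fat diet in wild type (median 2.24) and with loss of Myd88 on control diet (median 2.35). Their summed linear level was 5573 in knockout and 2415 in wild type on high-fat diet and 2596 in knockout and 504 in wild type on control diet, and all 9 were measured on each array. The 5 skeletal muscle markers kept, of which Ttn passed only through wild type on high-fat diet, summed to 71.3 in knockout and 202 in wild type on high-fat diet and to 80.2 in knockout and 88.3 in wild type on control diet. The 6 hepatocyte markers summed to 40330 and 39230 on high-fat diet and to 39860 and 39650 on control diet in knockout and wild type, a narrow range. The part of pancreas or muscle RNA in the Cyp3a values was not tested.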

How the data were processed

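Liver RNA pools of 4 groups, 1 array each, were measured on Affymetrix gene arrays. For each probe set the authors deposited a log2 value, obtained by RMA in Affymetrix Expression Console according to the submitters' processing notes. Neither the version nor the library file is named in the labels. RMA removes array-wide brightness differences and compresses differences of dim probe sets. Depth does not apply to arrays, whose number limits the precision, and detection calls were not used here.

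Of 41345 probe sets, 23521 had 1 gene symbol in the platform annotation, 1814 had several and 16010 had none. Genes were read from the brightest probe set of 1 symbol, and those below the 40th percentile of the mean were left out. Differences are subtractions of log2 values. The additive fit over all genes used limma 3.58.1 in R 4.3.3 (lmFit, eBayes, Benjamini-Hochberg) and was tested on simulated data. Other steps used Python 3.11.15, pandas 2.3.3, NumPy 2.4.6, Biopython 1.88 and matplotlib 3.10.9. Alternatives were a 1.5-fold threshold, cyclic loess or quantile normalization, the mean of a gene's probe sets, no filter and a trended eBayes prior.

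The members, gene lists and tests were chosen with earlier results of these data known. The text names all members, up to 4 genes per list with the widest range over the arrays, Myd88, and the 5 genes most like Cyp3a11, which was also the member of widest range. Nr1i2, Cyp2e1, the markers of other tissues below the filter, Xist and the neighbouring genes were named after their values were seen. The lists for Kupffer cells, sinusoidal endothelium, stellate cells and cholangiocytes held 8, 5, 5 and 3 measured genes, none of them 2-fold different in any comparison. Such counts say little for lists this short. List counts with no filter, and without genes kept through 1 array only, were added after the values were seen.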

Additional observations from a re-analysis of the deposited data

Results flagged for a closer look

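With 1 array per group, a sample far from the others of its group cannot be sought. The diet difference had opposite signs in knockout and wild type for 4 members and 1 mixed probe set, which was not tested. Knockout minus wild type, the difference was 1.31 for Cyp3a59, 1.29 for Cyp3a25, 1.14 for Cyp3a11, 0.55 for Cyp3a16, which is dim, and 0.87 for probe set 17455143. Of all genes kept, 44.7% had opposite signs, so the sign alone does not set these genes apart.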

How the results depend on the processing

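At a 1.5-fold threshold in place of 2-fold, the number of members lower with high-fat diet in wild type was 4 in place of 2. The number higher with loss of Myd88 on high-fat diet was 2 in place of 0. The number lower with loss of Myd88 on control diet was 3 in place of 0. Cyp3a44, above the filter value only on the wild-type control array, is among the 4 and the 3. RMA had already removed array-wide brightness differences, so cyclic loess and quantile normalization were a second such step and a weak test. The counts of members past 2-fold did not move by more than 1.5 times under either. The same held with the mixed probe sets counted, an alternative chosen after seeing the data. The mean of all probe sets and no filter gave the same counts but could not test them. Each of the 6 members has 1 probe set, so its mean is the same value, and leaving out the filter only adds the dim Cyp3a16. Of 24 differences of single members, the largest shift under any setting was 0.07. The sign turned under cyclic loess for Cyp3a11 with diet in knockout (-0.01 against 0.02) and for Cyp3a44 with genotype on high-fat diet (0.004 against -0.03), both near 0. Limma called 0 members for diet or genotype under each of its 5 alternatives, with a smallest member adjusted p between 0.366 and 0.613 for diet; over all genes it called 70 for diet and 3 for genotype after cyclic loess and 0 otherwise. At an unadjusted p of 0.05 it passed 1 or 2 members for diet and 0 or 1 for genotype. No paired analysis was possible because each group has 1 array. The differences that use the wild-type control array cannot be given without it, and leaving out an array leaves limma no residual degree of freedom. Signal over background is unknown, which limits Cyp3a44 and Cyp3a16.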
